A study of Homo sapiens with 3 samples.

Results

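The genes described here are 10 genes of the epithelial-mesenchymal transition (EMT), of 18132 genes on the array. They are the transcription factor genes SNAI1, SNAI2, ZEB1, ZEB2, TWIST1, TWIST2 and PRRX1 and the mesenchymal marker genes VIM, CDH2 and CDH11. They were taken by symbol, with every probe set that the platform annotation pairs with that 1 symbol, which gave 26 of 44988 single-symbol probe sets. The cells were KYSE150, an established human line of oesophageal squamous carcinoma, grown in medium with fetal calf serum. They were transfected with pcDNA3.1 carrying LOXL2 delta72, with pcDNA3.1 carrying LOXL2 WT, or with vector as the control, and RNA was taken 48 h later. Each of the 3 conditions was read on 1 Affymetrix array, so there is no replicate spread and no test. The words higher and lower refer to these arrays alone. The labels name delta72 without describing it, and the share of cells that took up a plasmid is not given in the sources used here.

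EMT is the programme by which epithelial cells loosen their junctions and take on a motile, mesenchymal state. The SNAI and ZEB zinc finger proteins and the TWIST proteins bind short DNA elements called E-boxes, and the SNAI and ZEB proteins are best known as repressors of E-cadherin and other epithelial genes. LOXL2, a lysyl oxidase, is a known partner of the Snail protein encoded by SNAI1, which is the reason to look at these genes in cells given LOXL2. Carcinoma lines often hold a mixed state, with epithelial genes and some EMT factors expressed side by side.

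Values are deposited log2 intensities, and 1 unit is a doubling of brightness. A gene was counted only when the mean of its brightest probe set over the 3 arrays reached 5.27, the 40th percentile of all probe sets that are not Affymetrix controls. This left 12232 genes, and 4 of the 10 EMT genes: SNAI2, TWIST1, VIM and CDH2. SNAI1 lay just outside, 0.03 below the filter value, and CDH2 was the nearest above it, by 0.45. ZEB1, ZEB2, TWIST2, PRRX1 and CDH11 were below it with every probe set. Brightness depends on the probes, so levels are compared between arrays for the same probe set and never between genes.

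The arrays were near a common scale, with medians of 5.94 for delta72, 5.93 for WT and 5.95 for control. The brightest LOXL2 probe set read 14.06 with delta72 and 14.05 with WT, against 7.46 in control cells. Of the 4 LOXL2 probe sets, 3 read higher with delta72 and with WT than in control, and the other read 8.66 with delta72 and 8.32 with WT, against 8.81 in control. None of the 4 separates the delta72 array from the WT array by 1.5-fold. Of 8 epithelial markers, not all of them specific to squamous cells, 6 were read by a single-symbol probe set. All 6 were above the filter: KRT5, KRT14, DSG3, SFN, CDH1 and EPCAM. Of 8 fibroblast markers 1 was above it, PDGFRB, while COL1A1, COL1A2, COL3A1, DCN, LUM, THY1 and FAP were below. Their summed linear intensity was 191 with delta72, 199 with WT and 192 in control. Of the endothelial markers 3 of 5 were above the filter, with sums of 205, 209 and 208, and of the leukocyte markers read on the array 2 of 5, CD3E and CD68, with sums of 475, 417 and 577. The 23 background probe sets, which match no human transcript, shifted between -0.29 and 0.03 in WT minus control, between -0.17 and 0.05 in delta72 minus control, and between -0.02 and 0.15 in delta72 minus WT. EMT gene differences inside these ranges are no larger than those of probe sets without a target. In control, the background probe set with 3 G or C bases read 2.36 and the one with 25 read 10.84. Some background probe sets thus lay above the filter value, so passing the filter does not by itself show that a transcript is present. Their WT minus control shift was 0.03 at 8 G or C bases and -0.29 at 24.

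Promoter sequence is shown for ZEB1, whose probe sets mostly read higher with both forms, and for VIM, the mesenchymal marker with both probe sets above the filter. The sequences are from RefSeq (GRCh38.p14) and run from 250 bases before to 50 bases after an annotated transcript start, 5′ to 3′ on the plus strand. Capitals mark every match to the general E-box CANNTG, a motif that reads the same on both strands. ZEB1 has 7 annotated windows, and the one shown is chr10:31318966-31319265. The VIM window is chr10:17227991-17228290.
ZEB1: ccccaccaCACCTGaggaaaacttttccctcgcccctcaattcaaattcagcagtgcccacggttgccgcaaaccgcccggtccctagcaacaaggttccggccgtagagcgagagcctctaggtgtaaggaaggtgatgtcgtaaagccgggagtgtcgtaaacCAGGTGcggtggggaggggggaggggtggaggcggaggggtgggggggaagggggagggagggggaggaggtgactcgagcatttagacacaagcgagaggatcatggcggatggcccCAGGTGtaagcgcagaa
VIM: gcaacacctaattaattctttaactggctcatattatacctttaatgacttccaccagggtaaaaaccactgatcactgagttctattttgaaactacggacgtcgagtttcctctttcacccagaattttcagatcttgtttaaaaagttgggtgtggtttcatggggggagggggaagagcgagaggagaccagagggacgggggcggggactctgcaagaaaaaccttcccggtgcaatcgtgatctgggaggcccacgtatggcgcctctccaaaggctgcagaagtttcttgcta
All 3 matches in this ZEB1 window are the form CAGGTG, read on one strand or the other, which is the form usually given for SNAI and ZEB proteins. The VIM window holds no E-box of the general form. The CAGGTG form is a subset of the general one. It occurred in 2 of the 7 ZEB1 windows, and the window shown holds the most matches to it of the 7. Windows were available for 6 of the EMT genes (ZEB1, ZEB2, TWIST2, PRRX1, VIM and CDH2), 13 in all. The CAGGTG form occurred in 2 of these 13 and in 20.6% of all 35116 windows of this length. The general form occurred in 6 of the 13 and in 68.7% of all windows. These matches describe letters only.

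**Figure D1:**
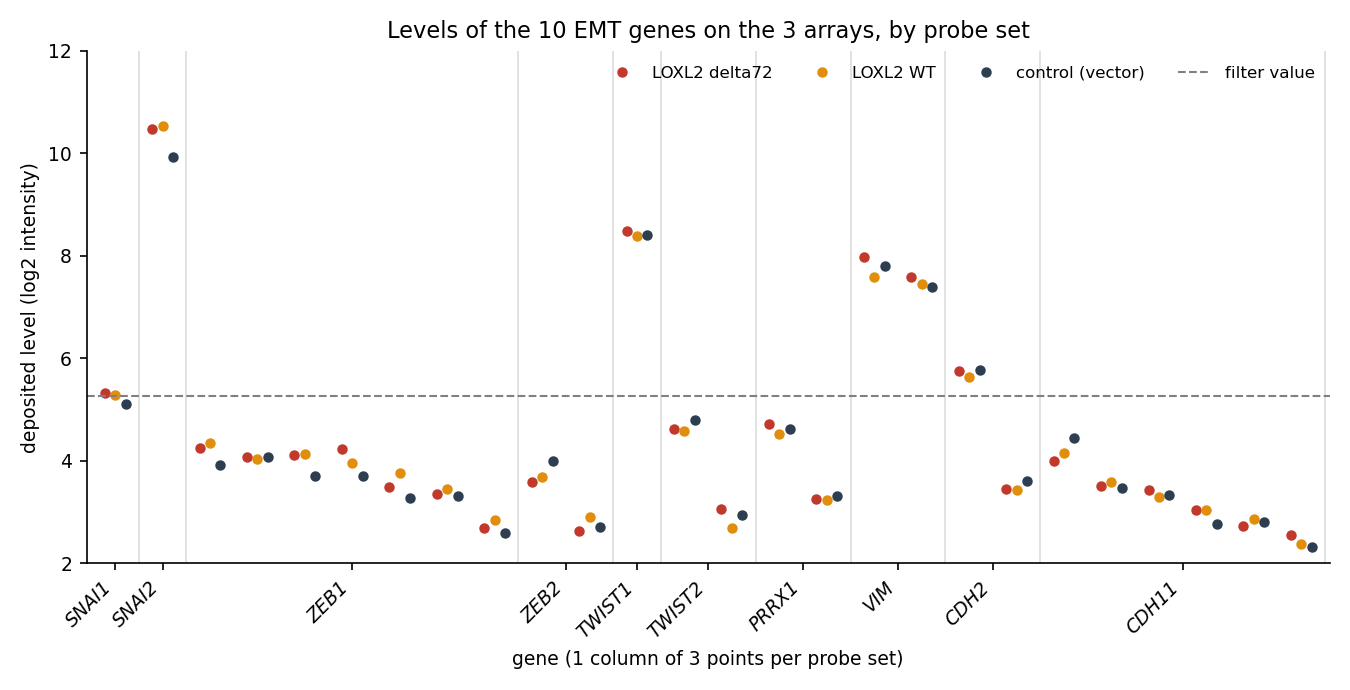
Deposited levels (log2 intensity, vertical axis) of every probe set of the 10 EMT genes, with 1 point each for delta72, WT and control, and the filter value of 5.27 as a dashed line. SNAI2 stands higher with both LOXL2 forms than in control, while the points of TWIST1 lie within 0.09 of each other.

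By the brightest probe set of each gene, SNAI2 differed most from control among the EMT factors. SNAI2 encodes Slug, a repressor of the Snail family that is also expressed in basal keratinocytes. Its 1 probe set read 10.46 with delta72 and 10.53 with WT, against 9.93 in control cells. Both LOXL2 arrays were therefore higher than the control array, and they differed little from each other. With delta72 the difference from control was 0.54 (1.45-fold), with WT it was 0.60 (1.52-fold), and delta72 minus WT was -0.07. These differences from control were larger in size than the largest background shift, which was 0.17 with delta72 and 0.29 with WT. The background shifts were mostly downward and reached only 0.05 and 0.03 on the higher side, so many small rises would also lie outside their ranges. Ordered from the highest difference down, SNAI2 stood at place 196 of 12232 genes with WT and at place 204 with delta72.

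SNAI2 was the 1 EMT gene, of 4 above the filter, that reached 1.5-fold with WT, where 2.71% of all genes were at least 1.5-fold different in either direction and 1.85% were higher. With delta72, 0 of the 4 reached it, against 1.78% of all genes, and between delta72 and WT 0 of 4 did, against 0.221%. SNAI2 lay close to the 1.5-fold line on both sides of this count, which is 0.585 in log2. With the arrays centred on 1 median, its WT difference was 0.58 and no longer reached 1.5-fold. Both differences use the same control array. On RNA from whole cultures, more cells that express SNAI2 and more SNAI2 RNA per cell cannot be told apart.

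The 5 genes whose pair of differences from control was nearest to that of SNAI2, by Euclidean distance over 3 arrays, were GOSR2, TRIM36, PTCD2, DDX39A and PUSL1, at distances of 0.0054 to 0.026. GOSR2, which encodes a SNARE protein of Golgi transport, differed by 0.54 with delta72 and by 0.60 with WT. This nearness holds for the brightest probe set of each gene: the median over probe sets was 0.33 with delta72 and 0.36 with WT for GOSR2, and 0.25 and 0.28 for TRIM36. In all, 99 genes lay within 0.1 of SNAI2, so the pattern was shared by many genes.

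SNAI1, the founding Snail factor and the known partner of LOXL2, had 1 probe set at the edge of the filter. It read 5.32 with delta72 and 5.29 with WT, against 5.11 in control. The order was the same as for SNAI2 in that both forms stood above control, but the differences were small, at 0.21 (1.16-fold) and 0.18 (1.13-fold). The delta72 minus WT difference was 0.03. SNAI1 is a short-lived protein that is regulated strongly after transcription, and the array reads its RNA only.

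ZEB1, a repressor with zinc finger clusters at both ends, was read dimly by 7 probe sets, all below the filter. All 7 carry a suffix that Affymetrix gives to probe sets that may match more than 1 transcript, and probe sets of 1 gene are not independent. The brightest read 4.24 with delta72 and 4.36 with WT, against 3.92 in control, and the dimmest 2.68 and 2.84, against 2.59 in control. With delta72, 7 of 7 probe sets were higher than in control, with a median of 0.21, a range of 0.0031 to 0.54 and an SD of 0.20. With WT, 6 of 7 were higher, with a median of 0.26, a range of -0.03 to 0.49 and an SD of 0.19. Among all 17799 single-symbol probe sets below the filter, 42.6% were higher with delta72 than in control and 39.3% with WT, with medians of -0.03 and -0.05 and SDs of 0.21 and 0.22. Between the forms, 2 of the 7 ZEB1 probe sets were higher with delta72 and 5 lower, with a median of -0.09. Without probe positions, no probe set can be tied to one of the 7 start sites.

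ZEB2, the close relative of ZEB1, had 2 dim probe sets that did not move together. The brighter read 3.59 with delta72 and 3.68 with WT, against 4.01 in control, so both forms were below control. The dimmer read 2.63 with delta72 and 2.90 with WT, against 2.71 in control, so WT was above control and delta72 below it. The medians over both were -0.25 for delta72 and -0.07 for WT.

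TWIST1, a basic helix-loop-helix factor of mesoderm and of EMT, was well above the filter and nearly level across the arrays. It read 8.49 with delta72 and 8.40 with WT, against 8.40 in control, which are differences of 0.08 and -0.0075. In all 3 comparisons its difference was smaller in size than the largest shift of a background probe set. TWIST2, its paralogue, was read below the filter at 4.62 with delta72 and 4.58 with WT, against 4.79 in control, by its brighter probe set. Its dimmer probe set read 3.07 with delta72, 2.69 with WT and 2.94 in control, so the probe sets had opposite signs for delta72 against control. PRRX1, a homeobox factor of mesenchyme, read 4.72 with delta72, 4.53 with WT and 4.62 in control on its brighter probe set. Over both probe sets its differences from control ran from -0.10 to 0.10.

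**Figure D2:**
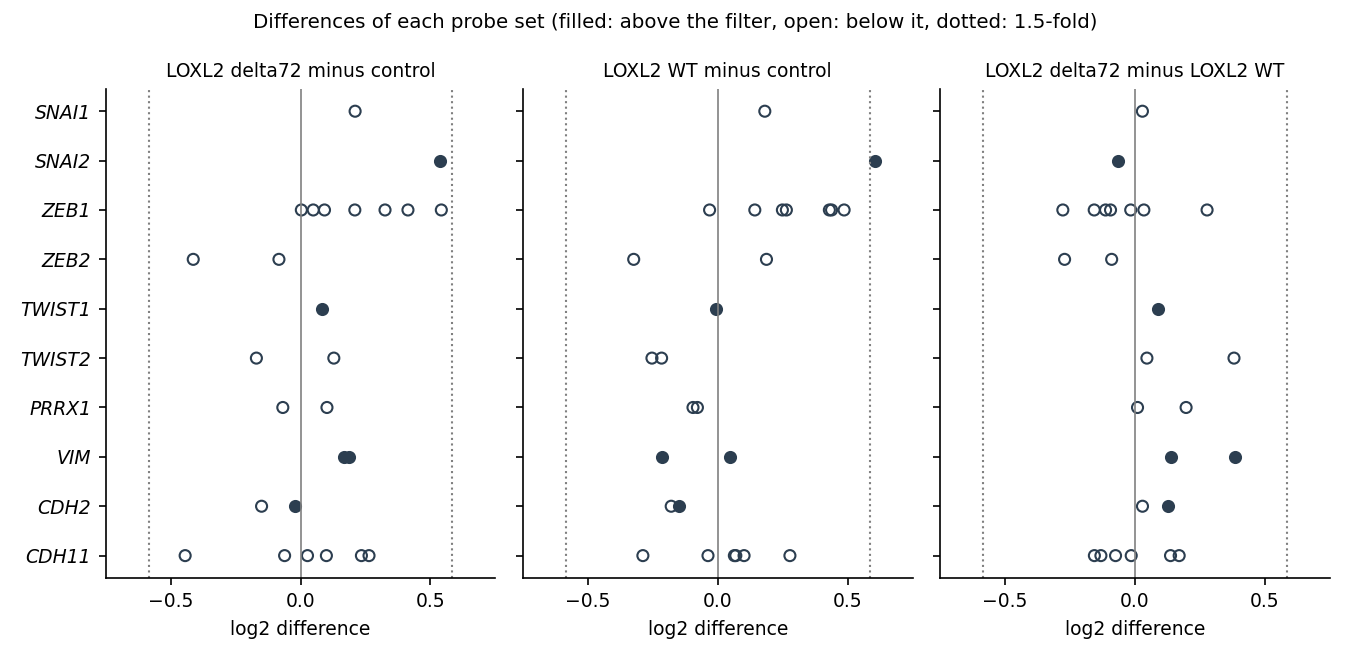
Log2 differences (horizontal axis) of every probe set of the 10 EMT genes in delta72 minus control, WT minus control and delta72 minus WT, with filled points above the filter, open points below it and dotted lines at 1.5-fold. SNAI2 lies at 0.54 and 0.60 against control, the 7 ZEB1 probe sets spread from -0.03 to 0.54 against control, and no point passes 1.5-fold between the forms.

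The mesenchymal markers differed less from control than SNAI2. VIM encodes vimentin, the intermediate filament protein of mesenchymal cells. Its brighter probe set read 7.98 with delta72 and 7.59 with WT, against 7.81 in control, so WT was the lowest and delta72 the highest. The other read 7.58 with delta72 and 7.45 with WT, against 7.40 in control, so control was the lowest. The probe sets thus had the same sign for delta72 minus control, at 0.17 and 0.19, and opposite signs for WT minus control, at -0.22 and 0.05. The SD over them was 0.01 for delta72 and 0.19 for WT.

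Between the forms VIM was higher with delta72 on both probe sets, by 0.38 (1.30-fold) and by 0.14 (1.10-fold). The first is the _x_at probe set, a suffix for probes that may bind other transcripts, and the other is not. It was the 100th highest of 12232 genes in delta72 minus WT, a comparison without the control array, and 1.20% of genes had a larger difference in either direction. With the probe set that has no such suffix the difference was 0.14, inside the range of the background probe sets, whose largest shift between the forms was 0.152.

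CDH2 encodes N-cadherin, the adhesion protein that carcinoma cells often gain in EMT. Its probe set above the filter read 5.76 with delta72 and 5.63 with WT, against 5.78 in control, and the dimmer read 3.46 and 3.43, against 3.61 in control. Both probe sets were lowest with WT, at -0.15 and -0.18 from control, and delta72 lay at -0.02 and -0.15. All 4 values lie within the ranges of the background probe sets. CDH11 encodes a cadherin of osteoblasts and fibroblasts and was below the filter with all 6 probe sets. Against control, 4 of 6 were higher and 2 lower with each form. The brightest was lower, at -0.44 with delta72 and -0.29 with WT, and went against the median over the 6, which was 0.06 for delta72 and 0.07 for WT.

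Across the 4 EMT genes above the filter, the median difference from control was 0.13 with delta72, with 3 genes higher and 1 lower, and -0.08 with WT, with 1 higher and 3 lower. The lower gene with delta72 was CDH2, which turned to 0.0035 after a lowess correction, and the WT median turned to 0.02 with VIM read by its probe set without a suffix. The medians of all 12232 genes were 0 and -0.0094. Between the forms the median was 0.11, against 0.0013 over all genes, and VIM, CDH2 and TWIST1 were higher with delta72 while SNAI2 was lower. No EMT gene was 2-fold different in any of the 3 comparisons, on any probe set, while 0.139% of all genes were with delta72, 0.278% with WT and 0.0164% between the forms. As the plot of both differences shows, SNAI2 lies apart from the other EMT genes, among genes higher with both forms.

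**Figure D3:**
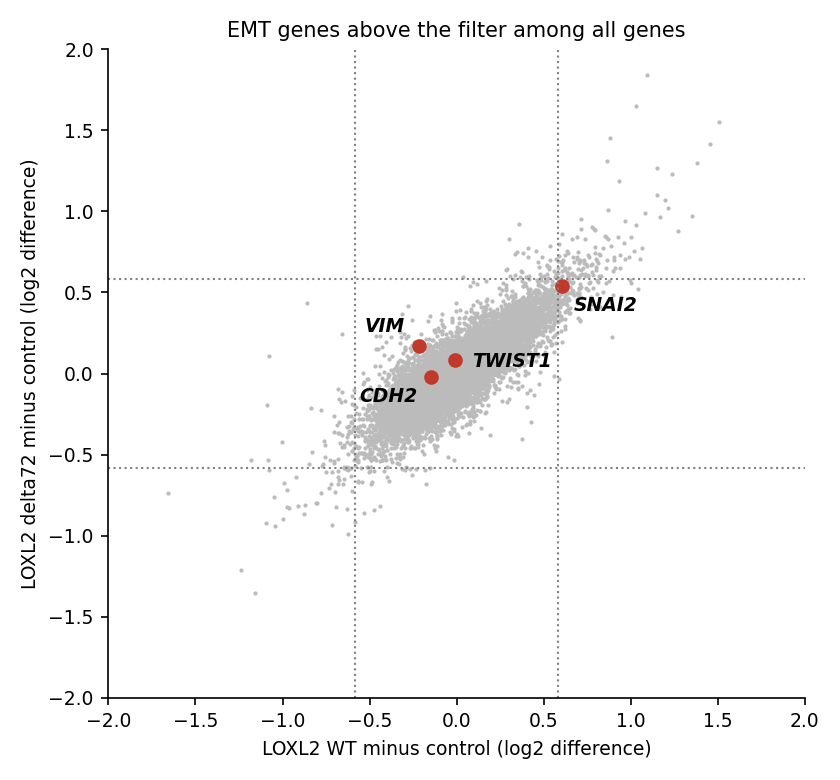
Each grey point is 1 of the genes above the filter, LOXL2 left out, with WT minus control on the horizontal axis and delta72 minus control on the vertical axis, both as log2 differences. The 4 EMT genes above the filter are marked in red, SNAI2 at 0.60 and 0.54 and the others near the centre, and dotted lines mark 1.5-fold. Both axes share the control array.

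Genes around the EMT factors were described with 8 lists, of which 116 distinct genes were above the filter, the EMT genes and LOXL2 left out. By the brightest probe set of each, 0 of these 116 genes were at least 1.5-fold higher and 3 lower with delta72. With WT, 2 were higher and 3 lower. Over all genes 1.28% were higher and 0.499% lower with delta72, and 1.85% higher and 0.867% lower with WT. The lower ones were ID1, RUNX2 and KRT14 with each form, and the higher ones with WT were TNC and COL5A2. With the median over each gene's probe sets, TNC at 0.46 and COL5A2 at 0.16 with WT were under 1.5-fold. So was RUNX2, at -0.45 with delta72 and -0.39 with WT. By the same median, OCLN was at least 1.5-fold higher with delta72, at 0.62. Between the forms 0 of 116 reached 1.5-fold. The medians over the 116 were -0.0041 with delta72 and -0.03 with WT. Of all 12232 genes, 6085 were higher and 6097 lower with delta72, and 5876 were higher and 6329 lower with WT.

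The epithelial genes known as repressed targets of SNAI or ZEB proteins were on either side of control. With delta72, 12 of 22 were higher and 10 lower, with a median of 0.0060, and with WT 10 were higher and 12 lower, with a median of -0.05. None of the 22 reached 1.5-fold by its brightest probe set. CDH1, the E-cadherin gene and the classical target, read 11.91 with delta72 and 11.95 with WT, against 11.91 in control, by its brightest probe set. Its other probe set, dimmer but above the filter, was lower than control, at -0.23 with delta72 and -0.27 with WT. The median over both was -0.12 and -0.11. OCLN, a tight junction gene, was at 0.58 with delta72 and 0.48 with WT by its brightest probe set. By the other, also above the filter, it was at 0.66 and 0.57. The median over both was 0.62 and 0.53, so by this measure OCLN was past 1.5-fold with delta72. PATJ, a polarity scaffold gene, was at -0.39 and -0.52 by its brightest probe set, but 3 of its 7 probe sets were higher with WT than in control, and the median over them was -0.24 with delta72 and -0.35 with WT. RAB25, which acts in epithelial vesicle recycling, was at -0.23 and -0.42, and KRT18, a simple keratin gene, at -0.32 and -0.28.

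The partners, corepressors and chromatin enzymes of SNAI and ZEB proteins were all above the filter, 22 of 22. The list had 13 higher and 9 lower with each form, medians of 0.01 with delta72 and 0.04 with WT, and 0 genes at 1.5-fold. CTBP2, a corepressor of ZEB proteins, was at 0.13 with delta72 and 0.32 with WT by its brightest probe set. Its median over probe sets was 0.04 with delta72, where 4 of 7 were higher than in control, and 0.07 with WT. LOXL3, a relative of LOXL2, was at -0.36 and -0.40 by its brightest probe set and at 0.22 and 0.17 by the other, which was below the filter. TAF12 was at 0.31 and 0.27, and SMAD3, a signal transducer of TGF-beta, at -0.14 and -0.31. Enzymes that act on the stability of SNAI1 had 13 of 20 genes higher and 7 lower with each form, medians of 0.03 and 0.04, and 0 at 1.5-fold. USP27X, a deubiquitinase of SNAI1, was at 0.41 with delta72 and 0.57 with WT on 1 probe set. FBXL14 and FBXL5, ubiquitin ligase subunits that act on SNAI1, were at -0.28 and -0.38 with delta72 and at -0.29 and -0.29 with WT. USP47 was at 0.10 and 0.25 by its brightest probe set. With delta72, 2 of its 4 probe sets were higher than in control, and the median over them was 0.02 with delta72 and 0.15 with WT.

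E proteins pair with TWIST proteins, and ID proteins sequester E proteins. In a list of their genes together with HAND1 and HAND2, 6 of 9 were above the filter, and 4 were higher and 2 lower with each form. The medians were 0.07 with delta72 and 0.08 with WT. ID1 was the member past 1.5-fold, and it was lower with both forms on all 3 probe sets. Its brightest read 9.21 with delta72 and 9.24 with WT, against 9.90 in control, and the differences ran from -0.85 to -0.68 for delta72 and from -0.84 to -0.65 for WT. TCF4, an E protein gene, was at 0.38 with delta72 and 0.36 with WT by its brightest probe set, but its median over 11 probe sets was 0.05 with delta72. TCF12 was at 0.05 and 0.23, and ID4 at -0.17 and -0.12, by the brightest probe set. The median over the 11 TCF12 probe sets was 0.03 with delta72 and 0.10 with WT. For ID4 the median was -0.09 with delta72 and 0.06 with WT, and 3 of its 4 probe sets were higher with WT than in control.

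Other transcription factors linked to EMT had 5 of 14 genes higher and 9 lower with each form, with medians of -0.11 with delta72 and -0.05 with WT. RUNX2, the osteoblast factor, was the member past 1.5-fold. It read 7.33 with delta72 and 7.46 with WT, against 8.15 in control, while its other probe set, below the filter, was at -0.08 with both. HMGA2, an architectural chromatin protein, was at -0.40 with delta72 and -0.30 with WT, with a median over its 6 probe sets of -0.16 and -0.10, and 3 of the 6 were higher with WT than in control. SOX9 was at -0.27 with both forms, with a median over probe sets of -0.06 with delta72, and 1 of its 3 probe sets was higher with delta72, by 0.23. FOSL1, an AP-1 subunit, was at -0.24 and -0.36. Other mesenchymal marker genes had 8 of 17 higher and 9 lower with delta72, with a median of -0.06, and 7 higher and 10 lower with WT, with a median of -0.05. TNC, tenascin C, read 8.38 with delta72 and 8.63 with WT, against 7.85 in control. All 4 TNC probe sets were higher with each form, but 1 of 4 reached 1.5-fold with WT, and the median over them was 0.35 with delta72 and 0.46 with WT. COL5A2, a fibrillar collagen chain, was at 0.45 with delta72 and 0.60 with WT on the 1 of 6 probe sets above the filter, and its probe sets ranged from -0.19 to 0.50 and from -0.52 to 0.60. MMP2 was at -0.33 and -0.42, and ACTA2, smooth muscle actin, at -0.30 and -0.35.

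The other cadherins and catenins had 1 of 8 genes higher and 7 lower with each form, by the brightest probe set. Of all 12232 genes, 6097 were lower with delta72 and 6329 with WT. The list medians were -0.08 with delta72 and -0.10 with WT, with 0 at 1.5-fold. The higher gene was CDH1, whose median over probe sets was lower than control, at -0.12 and -0.11. JUP, the plakoglobin gene, was at -0.18 with delta72 and -0.33 with WT. CDH22 was at -0.29 and -0.26 by the brightest of 3 probe sets (0.06 and 0.02 by the next brightest). CDH3, the P-cadherin gene, was at -0.08 and -0.15, and CTNNB1, the beta-catenin gene, at -0.14 and -0.11. These values of CDH3 and CTNNB1 lay within the ranges of the background probe sets. The other intermediate filament genes and linkers had 2 of 11 higher and 9 lower with delta72, and 1 higher and 10 lower with WT, with medians of -0.10 and -0.09. KRT14, a basal keratin gene, was the member past 1.5-fold. Its 1 probe set, an _x_at probe set that may bind other transcripts, read 7.10 with delta72 and 7.08 with WT, against 7.76 in control. KRT5 was at -0.35 and -0.09, and KRT8 at -0.31 and -0.26. All 8 KRT8 probe sets also carry the _x_at suffix, as do both of KRT18. The median over the KRT8 probe sets was -0.40 with delta72 and -0.32 with WT. Between the forms the medians of the 8 lists lay from -0.06 to 0.03.

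**Figure D4:**
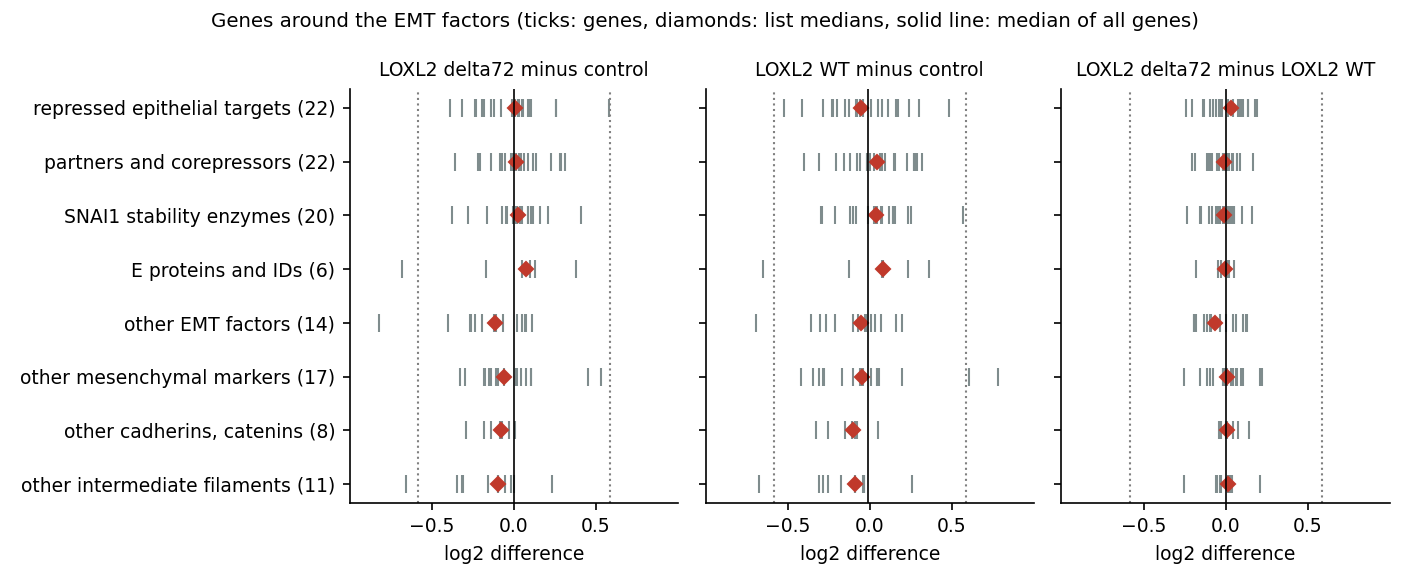
Log2 differences (horizontal axis) of the genes above the filter in 8 lists around the EMT factors, in delta72 minus control, WT minus control and delta72 minus WT, with the number of genes in brackets. Ticks are genes, red diamonds list medians, the solid line the median of all genes and the dotted lines 1.5-fold. The list medians stay between -0.11 and 0.08.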

How the data were processed

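RNA of KYSE150 cells was labelled from 100 ng per condition and put on Affymetrix arrays for 3' expression, per the labels' protocols. The authors deposited 49395 values per array, taken as log2 intensities because they lie between 2.07 and 14.56. Partek and Affymetrix Expression Console are named in the submitters' processing notes. How background was corrected and probes were summarized is not stated there, and depth does not apply to arrays, whose number limits the precision.

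From these values the differences between arrays were computed per probe set and, per gene, on the probe set with the highest mean. With 1 array per condition no test was made. SDs over a gene's probe sets are probe error only. Python 3.11.15, numpy 2.4.6, pandas 2.3.3 and statsmodels 0.14.6 were used. The counting was tested on simulated data with changes well past 1.5-fold, which does not test it for differences near that line. The alternatives were 3 scalings, other probe set choices, other filters and 2-fold.

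Named genes are the 10 EMT genes, LOXL2, CDH1, up to 4 genes per list with the largest difference, and the 5 nearest genes. The EMT genes and the lists were chosen with earlier results of these data known.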

Additional observations from a re-analysis of the deposited data

How the results depend on the processing

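With WT, 1 EMT gene was past 1.5-fold from control as deposited, 0 after centring on 1 median and 0 at 2-fold, since SNAI2 lies at the line. The other counts of EMT genes did not change, and their median moved by less than the pooled probe error of 0.145 with delta72, 0.170 with WT and 0.113 between the forms. Over 5 scalings and probe set choices SNAI2 ranged from 0.51 to 0.54 with delta72 and from 0.58 to 0.60 with WT. Of 150 values of single EMT genes, 138 moved by less than that error and 12 by more, all with another probe set choice. VIM with WT was 0.05 on the probe set without a suffix, against -0.22. COL5A2 with WT reversed to -0.52 without _s_at and _x_at probe sets. Of all genes, 207 were 1.5-fold different with WT under the median over probe sets, against 332, 131 with delta72, against 218, and 15 between the forms, against 27. Between the forms, 11 were at the 60th percentile filter and 56 without a filter. At 2-fold, 17 genes were different with delta72, 34 with WT and 2 between the forms. No paired analysis was possible because each condition has 1 array. Dim probe sets limit what can be said of ZEB1, ZEB2, TWIST2, PRRX1 and CDH11.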

Other observations

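MIR205HG, the host transcript of miR-205, was lower with both LOXL2 forms. It was named after its values were seen, because the mature miRNA is known to act on ZEB1 and ZEB2 transcripts. One probe set read 10.94 with delta72 and 10.90 with WT, against 11.52 in control, and the other 10.75 and 10.78, against 11.37 in control. The differences were -0.58 and -0.62 with delta72 and -0.62 and -0.59 with WT, and 0.04 and -0.03 between the forms. Both LOXL2 arrays were thus below the control array on both probe sets. Of all genes above the filter, 0.499% were at least 1.5-fold lower with delta72 and 0.867% with WT. The dim probe sets of the named targets did not share a direction. Those of ZEB1 were mostly higher than control, while the ZEB2 medians were lower, at -0.25 with delta72 and -0.07 with WT. The array reads the host transcript, not the mature miRNA, and any link with the dim ZEB1 and ZEB2 values was not tested. The mature sequence, from RefSeq (GRCh38.p14, chr1:209432166-209432187, plus strand), has its seed, bases 2 to 8, in capitals.
hsa-miR-205-5p: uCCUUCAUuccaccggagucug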
